A study of Mus musculus with 6 samples.

Results

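The neutrophil-attracting and platelet CXC chemokines are the products of 6 neighbouring mouse genes, Cxcl1, Cxcl2, Cxcl3, Cxcl5, Ppbp and Pf4, and they were read here as 6 of the 54532 genes in the expression table. The genes were taken by name, and the names were chosen by their changes between the same 2 groups that are compared below, so the differences of these 6 genes are given as a description and carry no test. In macrophage co-cultures with cisplatin-pretreated tumor cells, Pf4 stood 12.1-fold, Ppbp 7.004-fold, Cxcl3 5.86-fold and Cxcl2 1.98-fold higher than in the PBS co-cultures, whereas Cxcl5 was 2.40-fold and Cxcl1 1.59-fold lower (n = 3 libraries per group). When libraries were scaled to their Y-linked transcripts, which the ID8 line lacks, the log2 fold change of Cxcl2 was 0.0058 and the other members kept their side. The members thus moved in both directions, although all of them lie in 1 cluster on chromosome 5.

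The samples were bone marrow-derived macrophages (BMDMs), grown from the marrow of C57BL/6 mice 6 to 8 weeks old and kept in co-culture with ID8, a line of mouse ovarian surface epithelium that forms peritoneal tumors. For the cisplatin group ID8 was first exposed to the DNA-crosslinking platinum drug cisplatin at 40 µM, and for the PBS group to phosphate-buffered saline. Each group had 3 libraries of poly-T selected RNA, which the study's methods call biological replicates. Neither they nor the labels say whether these came from separate mice or cultures, so p-values measure only the spread between these libraries, which may be technical. The study's methods say that the monocytes were collected after co-culture for RNA extraction. How they were parted from ID8 cells, how long the cells shared a culture and whether they touched are not given in the sources used here.

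CXC chemokines are small secreted proteins that guide leukocytes through G protein-coupled receptors. Those with a glutamate-leucine-arginine (ELR) motif before the first cysteines, among them the products of Cxcl1, Cxcl2, Cxcl3, Cxcl5 and Ppbp, act on CXCR2 and draw neutrophils, and macrophages make several of them within hours of a danger signal through NF-κB. Pf4 (platelet factor 4, CXCL4) lacks the ELR motif, binds heparin and other glycosaminoglycans, and is stored with the Ppbp product in the alpha granules of platelets, although myeloid cells can express both genes.

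RefSeq promoters of Cxcl1, Cxcl2, Cxcl3, Ppbp and Pf4 are shown because Cxcl1, Cxcl2 and Cxcl3 carry letters there that Ppbp and Pf4 do not. Each sequence is the 100 bases upstream of the start, taken as the earlier of the RefSeq start and that of the expression table, on the plus strand of GRCm38.p6, which is the strand of all 6 genes. Capitals mark GGGAATTTCCC, the longest run of letters common to the upstream parts of the Cxcl1, Cxcl2 and Cxcl3 promoters and a site of the κB type that NF-κB binds, and the TATA-like motif ATAAAA, the latter also where it lies on the opposite strand as TTTTAT.
Cxcl1, chr5:90891141-90891240: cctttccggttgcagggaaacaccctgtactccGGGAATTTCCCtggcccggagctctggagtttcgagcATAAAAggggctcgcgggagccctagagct
Cxcl2, chr5:90903771-90903870: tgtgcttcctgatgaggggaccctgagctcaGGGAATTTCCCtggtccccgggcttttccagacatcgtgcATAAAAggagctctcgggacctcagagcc
Cxcl3, chr5:90786001-90786100: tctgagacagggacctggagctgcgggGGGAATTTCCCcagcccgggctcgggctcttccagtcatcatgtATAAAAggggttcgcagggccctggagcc
Ppbp, chr5:90768418-90768517: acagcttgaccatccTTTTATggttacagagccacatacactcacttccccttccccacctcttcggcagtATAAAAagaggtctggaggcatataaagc
Pf4, chr5:90772335-90772434: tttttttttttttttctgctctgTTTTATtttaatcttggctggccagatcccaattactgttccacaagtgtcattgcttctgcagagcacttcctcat

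Over the 100 bases shown, promoters were 70.4% identical between Cxcl1 and Cxcl2, 68.8% between Cxcl2 and Cxcl3 and 63.4% between Cxcl1 and Cxcl3, against 41.2% to 54.5% for every pair with Ppbp or Pf4. In the full RefSeq windows of 300 bases, from 250 before to 50 after each start, GGGAATTTCCC, searched on both strands, was found in Cxcl1, Cxcl2 and Cxcl3 and not in Ppbp and Pf4. The same 11 letters occurred in 14 of 32851 windows over all genes (0.043%), and ATAAAA, on either strand, in 18.5% of them. This run was taken from the members' own promoters, and a match is a description of letters, not a measured binding site. The 3 genes that carry it did not share a direction, since Cxcl3 and Cxcl2 were higher with cisplatin-pretreated cells and Cxcl1 was lower. Of the other genes with the same letters 2 were tested, Il16 with a log2 fold change of 0.11 (limma adjusted p = 0.103) and Zfp84 with 0.70 (adjusted p = 0.000105).

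Expression was read as FPKM (fragments scaled to a listed gene length and to the mapped fragments of the library), and differences are log2 fold changes of FPKM + 1. The listed lengths of Cxcl3, Cxcl2 and Cxcl1 were 3498, 2068 and 1875 bases, while their transcripts with the longest coding sequence had 1016, 1109 and 953. For Cxcl5 these lengths were 1863 and 1575, for Ppbp 1083 and 1083 and for Pf4 721 and 588. Levels, orders, shares and ratios between genes depend on these lengths, whereas the fold change of a gene in FPKM does not. A gene was called changed when its adjusted p was under 0.05 (limma, Benjamini-Hochberg over 13441 tested genes) and its log2 fold change was at least 1 in size. By that rule 3 of the 6 members were called higher, where 4.67% of all tested genes were, and 1 member was called lower, where 11.3% were. All 3 cisplatin libraries lay above all 3 PBS libraries for 4 members, against 35.2% of all tested genes, and below them for 2 members, against 37.2%. Because the same contrast chose the members, nothing is read from these counts. The gene lists given further on are also described by their counts at an unadjusted p under 0.05 in limma, where 34.3% of all tested genes were higher and 36.4% lower, and by the calls of voom (limma on the recovered reads), which were 7.66% higher and 14.9% lower over all tested genes.

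Cxcl2 (MIP-2, a CXCR2 ligand made by stimulated macrophages) was the most abundant member in every library. Its level was 219, 191 and 216 FPKM in PBS replicates 1 to 3 and 409, 435 and 393 FPKM in cisplatin replicates 1 to 3. Every cisplatin library was above every PBS library, with a wide gap between the groups. The mean went from 209 ± 15.7 to 412 ± 21.2 FPKM (SD, n = 3), a log2 fold change of 0.98 (SE 0.065), so Cxcl2 lay just outside the size threshold of 1, while Cxcl5, at -1.24, was the member closest to it on the inside. When libraries were scaled by Y-linked transcripts, which lowered all 6 members by a like amount, Cxcl2 was at 0.0058 on the log2 scale, under its SE. That SE leaves out the spread of the Y-linked genes themselves. Their folds, cisplatin over PBS, were 1.66 (Eif2s3y), 1.77 (Uty), 2.27 (Kdm5d) and 2.37 (Ddx3y).

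Cxcl3 (DCIP-1, the closest relative of Cxcl2) stood at 29.5, 26.6 and 27.9 FPKM in the PBS libraries and at 169, 163 and 160.3 FPKM in the cisplatin libraries. The 3 libraries of each group lay close together and far from the other group. The mean was 28.0 ± 1.48 FPKM with PBS and 164 ± 4.79 FPKM with cisplatin, and the log2 fold change was 2.51 (SE 0.047). By FPKM Cxcl3 was thus below Cxcl1 and Cxcl5 in the PBS co-cultures and above both in the cisplatin co-cultures. The order with PBS depends on the gene lengths. Cxcl3 had 1828, 1448 and 1512 reads in the PBS libraries, against 1466, 1352 and 1402 for Cxcl1.

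Cxcl1 (KC, a CXCR2 ligand of macrophages, epithelial and stromal cells) went the other way. It was at 44.2, 46.3 and 48.2 FPKM with PBS and at 29.8, 29.8 and 27.7 FPKM with cisplatin. The groups did not overlap, and in the deposited FPKM the difference was the smallest of the family. Means were 46.2 ± 2.02 and 29.1 ± 1.18 FPKM, with a log2 fold change of -0.65 (SE 0.048), short of the size threshold. Scaled by Y-linked transcripts, Cxcl1 was at -1.60 and Cxcl2 had the smallest change.

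Cxcl5 (LIX, a CXCR2 ligand known mainly from epithelial and stromal cells and platelets) was at 72.8, 71.0 and 83.5 FPKM in the PBS libraries and at 33.3, 32.4 and 28.9 FPKM in the cisplatin libraries. All PBS libraries were above all cisplatin libraries, PBS replicate 3 being the highest. The mean was 75.7 ± 6.76 FPKM with PBS and 31.5 ± 2.34 FPKM with cisplatin (log2 fold change -1.24, SE 0.078).

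Pf4 had the largest change of the family. It was at 16.1, 15.1 and 19.8 FPKM with PBS and at 216, 203 and 196 FPKM with cisplatin, so that the lowest cisplatin library was far above the highest PBS library. Means were 16.99 ± 2.45 and 205 ± 9.99 FPKM, and the log2 fold change of 3.52 (SE 0.095) placed Pf4 at rank 32 of the 13441 tested genes by size.

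Ppbp (pro-platelet basic protein, whose proteolytic product NAP-2 acts on CXCR2) was the least abundant member with PBS. Its values were 5.06, 8.30 and 6.73 FPKM in the PBS libraries and 50.8, 45.3 and 44.6 FPKM in the cisplatin libraries. The groups were far apart, but the PBS libraries were the most scattered of any member. The mean went from 6.70 ± 1.62 to 46.9 ± 3.36 FPKM, a log2 fold change of 2.66 (SE 0.15), at rank 152 by size.

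**Figure D1:**
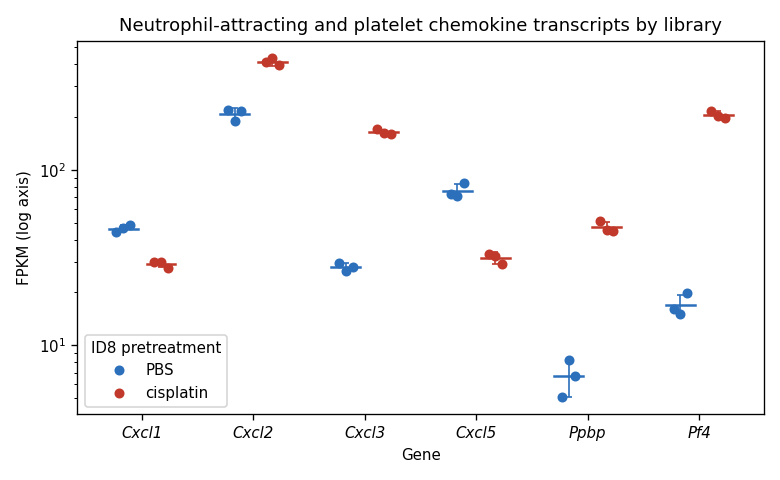
Expression of the 6 chemokine genes in each library, in FPKM on a log axis, with one point per library and a bar at the mean of each group (n = 3). Cxcl2, Cxcl3, Ppbp and Pf4 lie higher in the cisplatin libraries and Cxcl1 and Cxcl5 lower, with no overlap between the groups for any of them.

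Read counts behind these values were recovered from the FPKM and the gene lengths. The libraries held 15776238 to 17924686 reads on genes. Cxcl2 had 6141 to 14774 reads per library, Cxcl3 1448 to 10084, Cxcl5 889 to 2412, Cxcl1 859 to 1466, Pf4 170 to 2647 and Ppbp 97 to 935. The thinnest values were those of Ppbp and Pf4 in the PBS libraries, where the coefficient of variation was 24.2% and 14.4%, against 2.92% to 8.93% in all other combinations of member and group. Counting error alone at the lowest read count would give 10.2% for Ppbp and 7.67% for Pf4, so the precision of the PBS level limits the fold change of both genes more than that of the others.

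The 6 genes summed to 387, 358 and 402 FPKM in the PBS libraries and to 908, 908 and 851 FPKM in the cisplatin libraries. Of that sum Cxcl2 took 54.6 ± 1.84% with PBS and 46.4 ± 1.47% with cisplatin, remaining the largest part in both groups. Cxcl5 went from 19.8 ± 0.97% to 3.55 ± 0.14% and Cxcl1 from 12.1 ± 0.76% to 3.27 ± 0.012%. Pf4 went from 4.43 ± 0.42% to 23.1 ± 0.73%, Cxcl3 from 7.33 ± 0.36% to 18.5 ± 0.49% and Ppbp from 1.77 ± 0.51% to 5.28 ± 0.30%. Shares add to a whole, so a lower share of Cxcl2 went with a higher level of Cxcl2. Shares also rest on the gene lengths behind the FPKM, 3498 bases for Cxcl3 and 721 for Pf4, so their ranking holds for FPKM only.

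**Figure D2:**
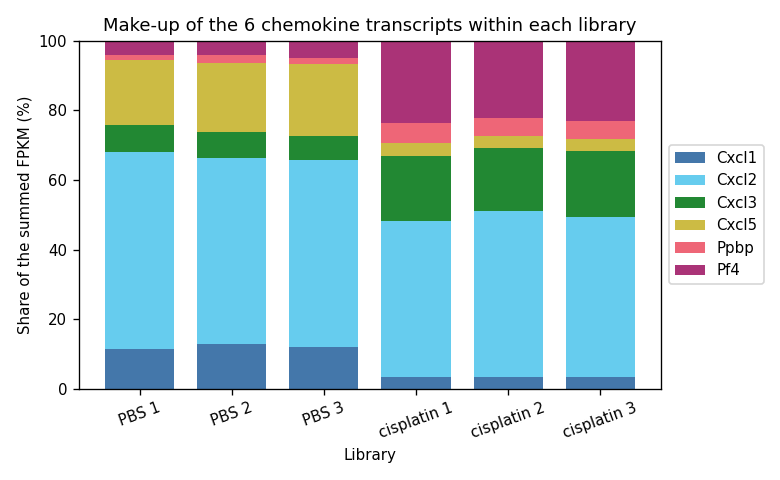
Share of each chemokine gene in the summed FPKM of the 6 genes, in percent, as one stacked bar per library. Cxcl5 and Cxcl1 fill 19.8% and 12.1% of the PBS bars on average and 3.55% and 3.27% of the cisplatin bars, while Pf4 goes from 4.43% to 23.1%.

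The platelet chemokines Ppbp and Pf4 together amounted to 23.7 FPKM with PBS and 252 FPKM with cisplatin. The pair Cxcl1 and Cxcl5 went from 122 to 60.7 FPKM, and the 3 closely related genes Cxcl1, Cxcl2 and Cxcl3 from 283 to 606 FPKM. Ratios between genes of the same library do not depend on the scaling of the libraries. The level of Cxcl2 was 4.52 ± 0.42 times that of Cxcl1 with PBS and 14.2 ± 0.45 times with cisplatin. The FPKM of Cxcl3 was 0.61 times that of Cxcl1 with PBS and 5.64 times with cisplatin. Whether Cxcl3 lay below Cxcl1 with PBS depends on the gene lengths, but the change of the ratio between the groups does not.

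In the PBS co-cultures the order by FPKM was Cxcl2, Cxcl5, Cxcl1, Cxcl3, Pf4 and Ppbp, and no neighbours in that order overlapped between libraries. In the cisplatin co-cultures it was Cxcl2, Pf4, Cxcl3, Ppbp, Cxcl5 and Cxcl1, and the ranges of Cxcl5 and Cxcl1 over the libraries overlapped, although Cxcl5 was above Cxcl1 within each library (ratio 1.08 ± 0.039, n = 3). Both orders depend on the listed gene lengths, 3498 bases for Cxcl3 and 721 for Pf4. Cxcl3 had 10084, 9340 and 9259 reads in the cisplatin libraries, against 2647, 2399 and 2337 for Pf4. Cxcl2 was above 98.9% of the tested genes with PBS and above 99.6% with cisplatin. Ppbp, which was above 47.0% of tested genes with PBS, was above 92.4% with cisplatin, and Pf4 went from 74.0% to 98.8%.

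**Figure D3:**
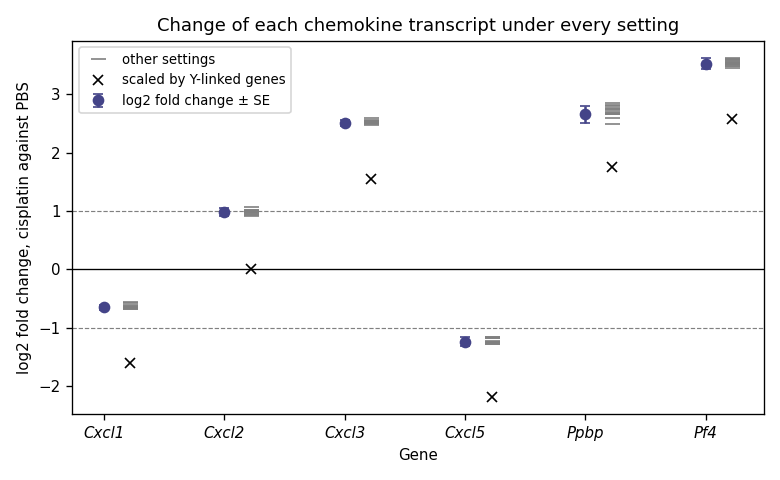
Log2 fold change (cisplatin against PBS, FPKM + 1) of each chemokine gene with its SE, beside its values under the other processing settings. A cross marks scaling by the Y-linked transcripts. Pf4 at 3.52, Ppbp at 2.66 and Cxcl3 at 2.51 lie past the threshold of 1, Cxcl2 lies at 0.98, and Cxcl1 and Cxcl5 lie below 0.

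The 6 genes occupy 147 kb of chromosome 5 of GRCm38, from Cxcl5 at position 90759360 to the end of Cxcl2 at 90905938, and the table gives all as protein-coding. Cxcl5 (ENSMUSG00000029371, chr5:90759360-90761624), Ppbp (ENSMUSG00000029372, chr5:90768518-90770063), Pf4 (ENSMUSG00000029373, chr5:90772435-90773383) and Cxcl3 (ENSMUSG00000029379, chr5:90786103-90789600) follow each other, then come Cxcl1 (ENSMUSG00000029380, chr5:90891241-90893115) and Cxcl2 (ENSMUSG00000058427, chr5:90903871-90905938). Ppbp and Pf4, 2.37 kb apart, and Cxcl3, 12.7 kb beyond Pf4, are consecutive and all 3 were higher with cisplatin. Cxcl5 lies 6.89 kb from Ppbp and was lower, and Cxcl1 and Cxcl2, 10.8 kb apart, had opposite directions, with Cxcl2 at 0.0058 when scaled by Y-linked transcripts.

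Of 26 other genes within 500 kb of the cluster, 9 were tested, 0 were called higher and 1 lower (4 lower when scaled by Y-linked transcripts), with a median log2 fold change of -0.00030 against -0.0011 over all tested genes. The gene called lower was Btc, which encodes the EGF receptor ligand betacellulin, at 20.51 ± 1.62 FPKM with PBS and 3.42 ± 0.23 FPKM with cisplatin (log2 fold change -2.28, limma adjusted p = 4.46e-07). By an unadjusted p under 0.05 in limma 2 of the 9 neighbours were higher and 3 lower, against 34.3% and 36.4% of all tested genes, and voom called 2 and 1. Of the other EGF family genes beside Btc, Areg had a log2 fold change of 0.61 (adjusted p = 0.00406) and Ereg of 0.10 (adjusted p = 0.292), while Epgn, too low to be tested, was at 0.203 FPKM with PBS and 0.0332 FPKM with cisplatin. Cxcl15, a lung-associated ELR chemokine gene of the same region, was at 0.226 ± 0.086 FPKM with PBS and listed at 0 in all 3 cisplatin libraries.

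**Figure D4:**
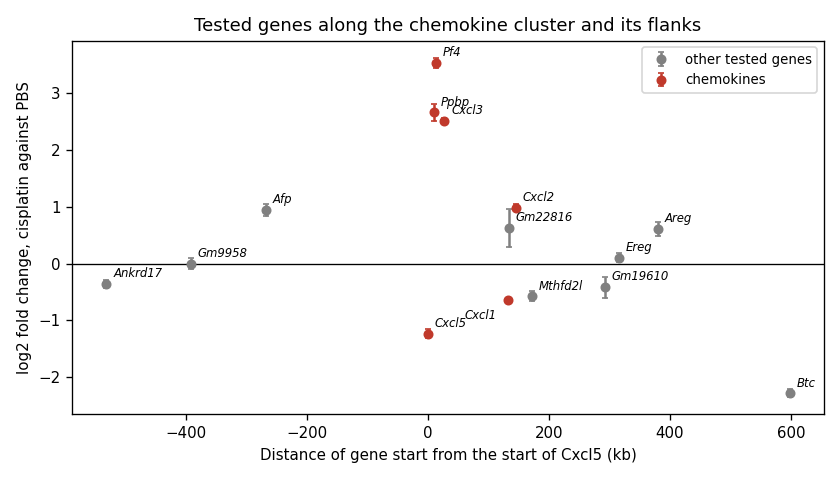
Log2 fold change (cisplatin against PBS) of the chemokine genes and of the tested genes around them, against the distance along the chromosome in kb. Cxcl3, Ppbp and Pf4 stand above all tested neighbours, Cxcl1 and Cxcl5 below 0, and Btc is the only neighbour called, at -2.28.

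The family members are also unequal in sequence, which bears on how reads are assigned. Coding sequences were 89.7% identical between Cxcl2 and Cxcl3, 76.0% between Cxcl1 and Cxcl2, 72.7% between Cxcl1 and Cxcl3 and 58.4% between Ppbp and Pf4, while Cxcl5 shared 51.2% to 52.7% with each of the others. Exact stretches of 50 bases shared with another gene made up 5.84% of those in Cxcl2 transcripts and 4.24% of those in Cxcl3, 0.69% in Cxcl5 and none in Cxcl1, Ppbp and Pf4. The stretches of Cxcl2 were shared with Cxcl3 alone, and those of Cxcl3 with Cxcl2 and with other genes. How reads from them were assigned was not tested, since the read length is not given in the sources used here. In GENCODE, Cxcl1, Cxcl2, Cxcl3 and Cxcl5 have 4 exons and Ppbp and Pf4 have 3, and no other gene overlaps any of them.

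Many chemokine transcripts are short-lived through AU-rich elements, whose core is ATTTA. After the stop codon Cxcl2 had 11 copies of ATTTA in 734 bases, Cxcl1 7 in 592, Cxcl3 5 in 645 and Cxcl5 5 in 1111. Ppbp had 1 in 656 bases and Pf4 1 in 123. The densities were 15.0 per kb for Cxcl2, 11.8 for Cxcl1, 7.75 for Cxcl3, 4.50 for Cxcl5, 1.52 for Ppbp and 8.13 for Pf4, against a median of 1.34 over 10570 tested genes. Genes dense in ATTTA were found in both directions of change, Cxcl2 higher and Cxcl1 lower.

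Genes whose levels over the 6 libraries were most like those of each member were found by Euclidean distance between log2(FPKM + 1) values, so that both the level and the group difference count. The nearest to Pf4 was Mpo, the myeloperoxidase gene of immature granulocytes, at a distance of 1.36, followed by Ctsg at 1.52. The nearest to Cxcl3 was Ctsg, at 0.40, followed by the cystine transporter gene Slc7a11 at 0.71. Cxcl2 was nearest to Sqstm1, the gene of the autophagy receptor p62, at 0.26 and to the peroxiredoxin gene Prdx1 at 0.40. Cxcl5 lay near the demethylase gene Alkbh5 at 0.19 and the cyclooxygenase-2 gene Ptgs2 at 0.23, Ppbp near G0s2 at 0.68 and the scavenger receptor gene Cd36 at 0.80, and Cxcl1 near Slk and Ampd3 at 0.15. Distances were largest for Pf4. The scatter of the Ppbp values in the PBS libraries adds to its distances, and the genes within a given distance of a member were not counted.

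The receptors and decoy receptors of these ligands, with the proteoglycans and clearance receptors that bind them, made a list of 9 genes, of which 8 were tested, 0 were called higher and 5 lower, with a median log2 fold change of -1.05. At an unadjusted p under 0.05 in limma 2 of 8 were higher and 6 lower (34.3% and 36.4% of all tested genes), and voom called 1 and 5. Cxcr2, the main receptor of the ELR chemokines, was at 13.2 ± 0.45 FPKM with PBS and 22.6 ± 1.28 FPKM with cisplatin (log2 fold change 0.73, adjusted p = 2.08e-05), higher in all 3 cisplatin libraries but not called at the size threshold, and at -0.19 when libraries were scaled by Y-linked transcripts. Cxcr1 was low in both groups, at 2.79 ± 0.57 and 0.19 ± 0.086 FPKM, and was called lower (log2 fold change -1.66, adjusted p = 3.94e-05). Cxcr3, a receptor through which Pf4 can act, was at 0.50 FPKM with PBS and 1.34 FPKM with cisplatin (log2 fold change 0.64, adjusted p = 0.00164).

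The syndecan genes Sdc4 and Sdc1, which encode heparan sulfate proteoglycans that hold chemokines at the cell surface, were called lower. Sdc4 went from 410 to 67.6 FPKM (log2 fold change -2.58, adjusted p = 5.02e-08) and Sdc1 from 50.6 to 18.8 FPKM (log2 fold change -1.38, adjusted p = 1.35e-06). The scavenging receptor gene Ackr3 was also called lower, from 2.03 to 0.42 FPKM (log2 fold change -1.10), as was Lrp1, which encodes a large endocytic receptor, from 91.2 to 45.1 FPKM (log2 fold change -1.002), at the edge of the size threshold. Ccrl2, a non-signaling chemokine receptor gene, was at 64.5 and 45.6 FPKM (log2 fold change -0.49, adjusted p = 5.06e-05).

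Of 9 other CXC ligand genes listed, 3 were tested, 0 were called higher and 2 lower, and at an unadjusted p under 0.05 in limma 0 were higher and 3 lower. Cxcl10, an interferon-inducible chemokine that attracts T cells through CXCR3, was at 58.5 ± 1.27 FPKM with PBS and 4.61 ± 0.45 FPKM with cisplatin (log2 fold change -3.41, adjusted p = 7.29e-08). Cxcl17, a mucosal chemokine, was called lower at a log2 fold change of -1.89 (adjusted p = 3.98e-05), and Cxcl16, a membrane-bound chemokine, was at -0.80 (adjusted p = 4.61e-05) and short of the size threshold. Cxcl10 thus lay on the side of Cxcl1 and Cxcl5 and opposite to Pf4, Ppbp and Cxcl3.

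Of 17 genes of cytokines, receptors and adaptors that induce ELR chemokines, 16 were tested, 0 were called higher and 1 lower, with a median log2 fold change of 0.18 (4 lower when scaled by Y-linked transcripts). At an unadjusted p under 0.05 in limma 8 of 16 were higher and 4 lower (34.3% and 36.4% of all tested genes), and voom called 0 and 1. Il1b, which encodes interleukin-1β, was at 125 FPKM with PBS and 193 FPKM with cisplatin (log2 fold change 0.62, adjusted p = 1.98e-05), and Tnf at 107 and 132 FPKM (log2 fold change 0.30, adjusted p = 0.00137). The gene called lower was Il17rc, a subunit of the interleukin-17 receptor (log2 fold change -1.54, adjusted p = 8.23e-06).

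Of 16 genes that act on the transcription or the mRNA decay of these chemokines, all 16 were tested and 0 were called in either direction at the size threshold, with a median log2 fold change of -0.13 (9 lower when scaled by Y-linked transcripts). At an unadjusted p under 0.05 in limma 4 of 16 were higher and 8 lower (34.3% and 36.4% of all tested genes), and voom called 0 and 1. Zfp36, which encodes tristetraprolin, a protein that binds AU-rich elements and speeds decay, had a log2 fold change of 0.13 (adjusted p = 0.0384), and its relative Zfp36l1 had -0.70 (adjusted p = 7.83e-06). Nfkbia, which encodes the NF-κB inhibitor IκBα and is itself an NF-κB target, had -0.55 (adjusted p = 1.32e-05).

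Of 14 genes of proteases that trim these chemokines and of granule proteins stored with them, 13 were tested, 7 were called higher and 0 lower, with a median log2 fold change of 1.06 (3 higher and 1 lower when scaled by Y-linked transcripts). At an unadjusted p under 0.05 in limma 12 were higher and 1 lower, and voom called 7 and 0. Ctsg, which encodes the neutrophil protease cathepsin G that cuts the Ppbp product to NAP-2, was at 29.0, 25.5 and 29.0 FPKM with PBS and at 135, 147 and 144 FPKM with cisplatin (log2 fold change 2.31, adjusted p = 2.19e-07). The gene of proteinase 3, Prtn3, had a log2 fold change of 2.50 (adjusted p = 6.68e-08) and the elastase gene Elane 1.86 (adjusted p = 1.08e-07). Vcan, which encodes the proteoglycan versican, rose from 0.78 to 15.3 FPKM (log2 fold change 3.19, adjusted p = 1.20e-07).

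**Figure D5:**
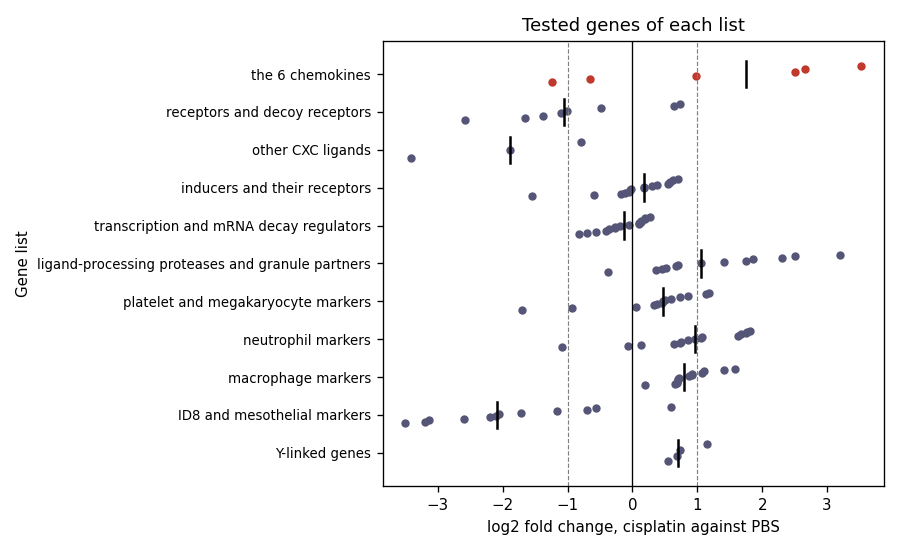
Log2 fold changes (cisplatin against PBS) of the tested genes in each list, one point per gene, with the median of each list marked. The ID8 and mesothelial markers have the lowest median, -2.09, and the proteases and granule partners the highest, 1.06, beside a median of 1.75 over the 6 chemokine genes that were chosen by this contrast.

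Because Ppbp and Pf4 are best known from platelets and megakaryocytes, markers of those cells were read beside them. Of 20 such genes 13 were tested, 2 were called higher and 1 lower, with a median log2 fold change of 0.48 (0 higher and 2 lower when scaled by Y-linked transcripts). Voom called 5 higher and 2 lower, as did limma with a pseudocount of 0.1, against voom calls of 7.66% and 14.9% over all tested genes. Itga2b, the integrin αIIb gene, went from 4.94 ± 0.13 to 12.1 ± 0.83 FPKM (log2 fold change 1.14, adjusted p = 4.57e-06) and Selp, the P-selectin gene, from 0.66 to 2.75 FPKM (log2 fold change 1.18, adjusted p = 1.75e-05). Itgb3, the partner of Itga2b that macrophages also express, was called lower, from 45.5 to 13.2 FPKM (log2 fold change -1.71, adjusted p = 2.19e-07).

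Of 13 tested platelet and megakaryocyte genes 10 were higher at an unadjusted p under 0.05 in limma and 2 lower, and for 10 of them all cisplatin libraries lay above all PBS libraries (35.2% of all tested genes). Several platelet genes were low in both groups. Gp1bb was listed at 0 in every library, Gp9 was at 0.36 FPKM with PBS and 0.70 FPKM with cisplatin, Treml1 at 0.80 and 1.06 FPKM, and Tubb1 at 1.48 and 2.13 FPKM (log2 fold change 0.33, adjusted p = 0.0263, and -0.29 when scaled by Y-linked transcripts). The summed level of the whole list was 105 to 109 FPKM over the PBS libraries and 104 to 110 FPKM over the cisplatin libraries. Without Itgb3, a sum chosen after the values were seen, the list was at 58.7 to 63.2 FPKM with PBS and 91.6 to 96.7 FPKM with cisplatin. The largest parts of that sum were Nfe2 (14.7 FPKM with PBS and 22.7 FPKM with cisplatin), Nbeal2 (13.8 and 19.4 FPKM) and F13a1 (13.5 and 19.1 FPKM). Either sum thus rests on few genes. The part of platelets or megakaryocytes in the Ppbp and Pf4 differences was not tested.

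Of 15 markers of neutrophils and their precursors, all tested, 7 were called higher and 1, Lcn2, lower, with a median log2 fold change of 0.96 (0 higher and 2 lower when scaled by Y-linked transcripts), against 4.67% higher and 11.3% lower over all tested genes. With quantile normalization 0 of these markers were called lower. In limma 12 were higher and 1 lower at an unadjusted p under 0.05, and voom called 8 and 1. The summed level was 6042 to 6159 FPKM with PBS and 9675 to 9894 FPKM with cisplatin. The granule gene Ngp went from 192 to 679 FPKM (log2 fold change 1.82, adjusted p = 1.15e-07) and the lactoferrin gene Ltf from 38.1 to 120 FPKM (log2 fold change 1.63, adjusted p = 1.28e-07). Ly6g, the defining surface marker of mouse neutrophils, was at 2.81 ± 0.46 FPKM with PBS and 3.15 ± 0.36 FPKM with cisplatin (log2 fold change 0.13, adjusted p = 0.349, and -0.60 when scaled by Y-linked transcripts).

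Of 14 macrophage markers, all tested, 4 (Lyz2, Itgam, Tyrobp and Mertk) were called higher and 0 lower, with a median log2 fold change of 0.79 (0 higher when scaled by Y-linked transcripts). At an unadjusted p under 0.05 in limma 14 were higher and 0 lower, and voom called 5 and 0. Their sum was 1858 to 1882 FPKM with PBS and 4621 to 4799 FPKM with cisplatin. Lyz2, the lysozyme gene, went from 1161 to 3459 FPKM (log2 fold change 1.57, adjusted p = 1.14e-07), and Adgre1, which encodes F4/80, from 103 to 189.7 FPKM (log2 fold change 0.87, adjusted p = 6.53e-07, and -0.097 when scaled by Y-linked transcripts).

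Of 17 markers of ID8 and mesothelial cells 12 were tested, 0 were called higher and 9 lower, with a median log2 fold change of -2.09. At an unadjusted p under 0.05 in limma 1 was higher and 11 lower, and voom called 0 and 9. Their sum was 1305 to 1393 FPKM with PBS and 244 to 270.2 FPKM with cisplatin. The keratin gene Krt19 was at 588 ± 28.8 FPKM with PBS and 51.1 ± 3.80 FPKM with cisplatin (log2 fold change -3.50, adjusted p = 7.18e-08), whereas Krt7 was near 0 in both groups. Y-linked transcripts, which the female-derived ID8 line lacks, summed to 19.5 to 22.7 FPKM with PBS and to 41.6 to 42.8 FPKM with cisplatin.

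The sum of the ID8 and mesothelial markers was lower with cisplatin, as were Cxcl1 and Cxcl5. The neutrophil, macrophage and Y-linked sums were higher, as were Cxcl2, Cxcl3, Ppbp and Pf4, and the sum of the platelet list overlapped between the groups. With only 2 groups, all genes that differ must share a direction or oppose each other, so nothing is read from these pairings. In bulk RNA of mixed cells, fewer cells of a type and less RNA per cell cannot be told apart, and the part of the cell mixture in each chemokine difference was not tested. When each library was scaled to its Y-linked transcripts in place of its total, the log2 fold change was 2.57 for Pf4, 1.75 for Ppbp and 1.55 for Cxcl3, Cxcl5 stood at -2.19 and Cxcl1 at -1.60, and Cxcl2 at 0.0058. That scaling shifted the median over all tested genes by -0.81. It divides all genes of a library by the same factor, so the kept order of the members by log2 fold change follows from its construction.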

How the data were processed

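RNA-seq was read in 3 PBS and 3 cisplatin libraries, grouped by their labels. Per the labels, the authors trimmed reads with fastp, mapped them to mm10 with HISAT2 2.0.5 and counted them per gene with featureCounts 1.5.0-p3, whereas the study's methods name LifeScope, and the conflict could not be settled. The deposited FPKM values were used as they stood. Each FPKM times the gene length, divided by the worth of 1 read in that library, gave whole reads, within 0.05 reads, for 100% of values under 200 reads. One read on 1 kb was worth 0.0565 to 0.0645 FPKM.

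FPKM of at least 1 in 3 or more of the 6 libraries was required, which left 13441 of 54532 genes. Differences were fitted on log2(FPKM + 1) with limma 3.58.1 (R 4.3.3), with a mean trend, and p-values were adjusted by the Benjamini-Hochberg method. A pseudocount understates the change of low genes. The step was tested on simulated data. Alternatives changed the pseudocount, the filter, the scaling, the test and the libraries. Libraries correlated at 0.984 to 0.989 within and 0.871 to 0.877 between groups, and 0 pairs were identical.

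The members and the gene lists were chosen with earlier results of these data known, and 1 gene of the receptor list is not reported here. Named genes were the 6 members, every tested gene of lists with up to 10, the 4 called genes with the largest change in longer lists, defining markers, called neighbours and the 2 protein-coding genes nearest to each member. Not all of them are printed above. Genes named beyond that rule (among them Il1b, Tnf, Zfp36, Zfp36l1, Nfkbia, Areg, Ereg, Cxcl15, Gp1bb and Lcn2) were chosen after their values were seen. Sequences came from RefSeq (GRCm38.p6, 5 of 6 members matched) and gene structures from GENCODE (GRCm38), whose coordinates equal those of the table for all 6 genes.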

Additional observations from a re-analysis of the deposited data

How the results depend on the processing

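Under every alternative tried Cxcl3, Ppbp and Pf4 stayed above 0 and Cxcl1 and Cxcl5 below it. When scaled by the Y-linked transcripts Cxcl2 fell to 0.0058, no difference beyond an SE that leaves out the spread among those transcripts. Apart from that scaling and from the fits that leave out 1 library, the log2 fold changes of the members lay between -0.67 and -0.56 for Cxcl1, 0.95 and 1.07 for Cxcl2, 2.50 and 2.60 for Cxcl3, -1.26 and -1.15 for Cxcl5, 2.66 and 2.86 for Ppbp and 3.52 and 3.61 for Pf4. Leaving out 1 library gave -0.68 to -0.62 for Cxcl1, 2.48 to 2.55 for Cxcl3, -1.28 to -1.17 for Cxcl5, 2.50 to 2.80 for Ppbp, 3.45 to 3.63 for Pf4 and 0.92 to 1.02 for Cxcl2, which reached the threshold of 1 in 3 of 6 such fits and, at 1.07, with scaling by recovered reads. Of 959 values for 57 named genes, 951 kept their sign. Under scaling by the Y-linked transcripts the direction turned for Adgre1 (-0.097), Csf1r (-0.037), Cxcr2 (-0.19), Eif2s3y (-0.23), Ly6g (-0.60), Prdx1 (-0.18), Tubb1 (-0.29) and Uty (-0.10). That scaling shifted the median of all tested genes by -0.81, and Eif2s3y and Uty are among the Y-linked genes that set it, so their values near 0 follow from its construction. Replicate numbers did not pair the libraries (correlations of deviations -0.10, -0.086 and -0.024), and with the replicate block 3 members were called higher and 1 lower, as without it, and no other count changed.

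Counts of calls that moved by over 1.5 times were as follows, and the cause was not tested unless the alternative itself fixes it. By adjusted p alone, 2 members were lower, receptors had 2 higher, inducers 8 higher and 3 lower, regulators 3 higher and 8 lower, proteases 12 higher and 1 lower, platelet markers 10 higher and 2 lower, neutrophil markers 12 higher, macrophage markers 14 higher, ID8 markers 1 higher and neighbouring genes 2 higher and 3 lower. Scaling by the Y-linked transcripts left 2 members lower, inducers with 4 lower, regulators 9 lower, proteases 3 higher and 1 lower, platelet markers 0 higher and 2 lower, neutrophil markers 0 higher and 2 lower, macrophage markers 0 higher and neighbouring genes 4 lower. A pseudocount of 0.1 gave receptors 1 higher, regulators 1 lower, platelet markers 5 higher and 2 lower and neighbouring genes 2 higher. Voom on recovered reads gave the same counts in these lists, and over all genes 1029 higher calls against 628. TPM rescaling gave receptors 1 higher, platelet markers 2 lower and neighbouring genes 1 higher. Quantile normalization gave receptors 3 lower, neutrophil markers 0 lower and neighbouring genes 1 higher. Among smaller moves, macrophage markers had 6 higher with scaling by recovered reads and 5 with quantile normalization and with voom, platelet markers 3 higher with TPM rescaling, and members 4 higher by adjusted p alone and with scaling by recovered reads. A filter at 5 FPKM, which tests fewer genes, left receptors 3 lower, inducers 0 lower and platelet markers 1 higher. Over the fits that leave out 1 library, neighbouring genes had 0 to 1 higher (1 without PBS replicate 3), members 3 to 4 higher, receptors 4 to 5 lower, macrophage markers 3 to 4 higher and neutrophil markers 7 to 8 higher, and the other counts did not move. The fourth member was Cxcl2, without PBS replicate 1, PBS replicate 3 or cisplatin replicate 3.

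Depth limits Ppbp most, with 97 reads in its thinnest PBS library. With 3 libraries per group from a mixed co-culture, and with members chosen by the same contrast, no value here tests how the cell mixture bears on any chemokine. Fold changes on the log2(FPKM + 1) scale understate the change of Ppbp in particular.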
